A study of Drosophila melanogaster with 2 samples.

Results

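Synaptic release and transmitter genes were followed in Drosophila larvae in which the SR protein dASF/SF2 was expressed as a GFP fusion. The group holds 10 genes: the vesicle fusion genes Syx1A, nSyb, Rop, unc-13, Syt1 and cpx, the active zone gene brp, and the transmitter genes ChAT, VAChT and VGlut. Members were found by gene symbol, with older symbols brought up to date, and only probes that carry a single symbol were used. Of the 10 genes, 8 had such a probe, among 11865 genes of the series with one. They were matched by 13 of the 15744 probes of the array: 4 for brp, 2 each for cpx and nSyb, and 1 each for ChAT, Rop, VAChT, VGlut and unc-13. No probe with a single symbol matched Syt1 or Syx1A, which are not analysed here.

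A neuron sends its signal by fusing transmitter-filled vesicles with the presynaptic membrane when calcium enters. The fusion is driven by SNARE proteins on both membranes, prepared by priming factors, held by complexin and triggered by synaptotagmin. Each neuron also needs an enzyme that makes its transmitter and a transporter that loads it into vesicles. In larvae of the fly, acetylcholine is the main excitatory transmitter of the central nervous system, and glutamate that of the neuromuscular junction.

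The compared larvae were the cross of GMR with GFP-dASF/SF2 and, as their control, the cross of GMR with GFP-NLS, GFP carrying a nuclear localisation signal. Both crosses thus hold GMR and a GFP transgene. The GMR enhancer works in the eye as it develops, and the labels give no age, sex or tissue beyond larvae. PolyA RNA of the crosses was set side by side on 2 two-colour arrays with dyes swapped. On array 1 the dASF/SF2 RNA was in Cy5, and on array 2 it was in Cy3. No source used here says that the arrays carried separate extracts, so the p-values cover only how far the arrays differ, possibly for technical reasons. Their number, 2, limits the precision. The comparison asks whether gene expression changes broadly with the GFP-dASF/SF2 transgene, and here whether the synaptic genes differ between the crosses.

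Each probe has 1 log ratio per array. Neither the numerator channel nor the log base is given in the sources used here. Values were taken as Cy5 over Cy3, so the sign of array 2 was turned, and the median of each array was subtracted. Under that reading a positive value stands for more transcript in dASF/SF2 larvae, and with Cy3 over Cy5 for less, so results are stated as the positive and the negative side. Whether array 2 should be turned is itself not settled, since the ratios may already run by genotype on both arrays. The member results below have array 2 turned unless stated otherwise, and the means without turning are given after them. Where a fold is printed, it is worked out on base 2 and on base 10. The table holds ratios without levels, so the abundance of a transcript, and whether neurons contributed much RNA, cannot be read from it. In such bulk RNA, fewer cells of a type and less RNA per cell cannot be told apart. The probe of SF2 itself (CG6987) had -0.031 on array 1 and -0.128 on array 2, with a mean of -0.0795 ± 0.0686 (SD, n = 2 arrays), and since it is not known to lie in the part carried by the transgene it does not check the labels.

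No member passed the test. The test was limma over all 10912 probes measured on both arrays, with Benjamini-Hochberg adjustment, and called 0 of the 9 member probes measured on both arrays, against 0% of all probes. The lowest adjusted p among the member probes by limma was 0.620. Before adjustment, 1 of the 9 (unc-13) had a p under 0.05 in limma, against 6.69% of all probes. The median half-width of the 95% interval over the 9 probes was 0.252, which is 1.19-fold on base 2 or 1.79-fold on base 10. These intervals are not adjusted for the number of probes, so the difference needed for a call was larger. The mean of unc-13, -0.302, was beyond that half-width and was not called. Of the 9, 4 lay on the positive side on both arrays (both cpx probes, VAChT and Rop), against 26.1% of all probes. Rop was positive on array 2 through centring alone, since its deposited value there was 0.001 before turning. On the negative side on both arrays lay 1, unc-13, against 23.1% of all probes. Both arrays thus put 5 of 9 member probes, Rop included, on the same side, where 49.1% of all probes did so. Over all probes, the correlation between array 1 and the turned array 2 was only 0.0244.

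**Figure D1:**
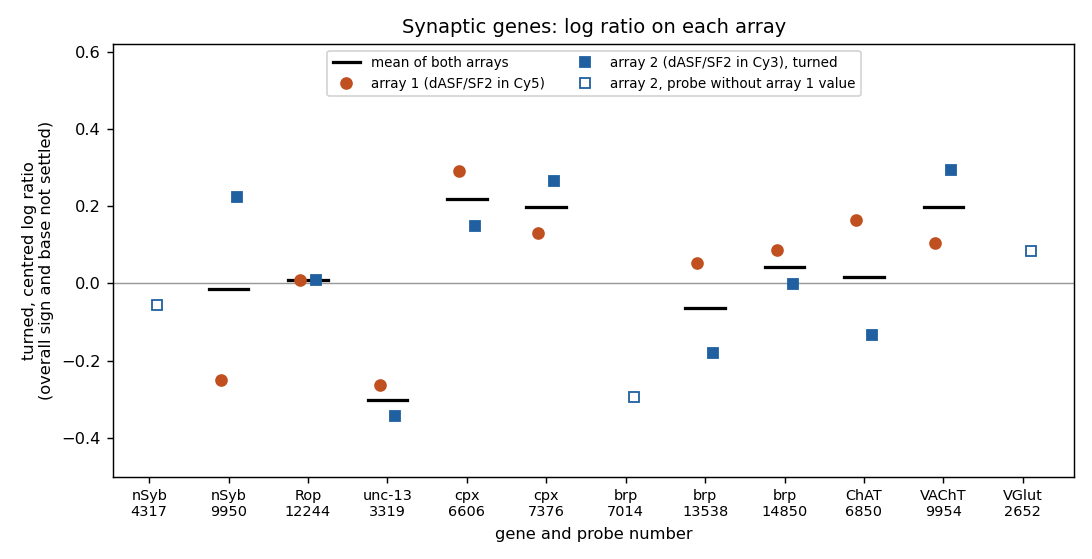
Turned and centred log ratios of the member probes (vertical axis, overall sign and base not settled) for each gene and probe number (horizontal axis). Circles are array 1, squares array 2, bars the mean of both, and open squares are probes without a value on array 1; unc-13 lies at -0.262 and -0.342, cpx and VAChT lie above 0 on both arrays, and nSyb lies at -0.251 and 0.224.

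Among the genes of vesicle priming and fusion, unc-13 had the mean farthest from 0. The protein Unc-13 (CG2999) opens syntaxin so that SNARE complexes can form, and vesicles cannot be primed without it. Its probe had -0.262 on array 1 and -0.342 on array 2. The arrays agreed to within their typical spread: the mean was -0.302 ± 0.0566 (SD, n = 2), where the median SD over all probes was 0.1075. The size is 1.23-fold on base 2 or 2.00-fold on base 10. Its 95% interval of -0.546 to -0.0581 did not include 0, but limma gave an adjusted p of 0.620 over all probes. A mean at least that far from 0 was found in 6.47% of all probes.

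Complexin, encoded by cpx (CG32490), is a small protein that binds assembled SNARE complexes. In flies it restrains spontaneous release and supports release that calcium evokes. Both cpx probes lay on the positive side on both arrays. Probe 6606 had 0.290 on array 1 and 0.149 on array 2, and probe 7376 had 0.130 on array 1 and 0.266 on array 2. The order of the probes changed from array to array, with probe 6606 higher by 0.160 on array 1 and lower on array 2 (difference -0.117). Their means were nearly equal, 0.220 ± 0.0997 for probe 6606 and 0.198 ± 0.0962 for probe 7376 (SD, n = 2 each). Averaged over its probes, cpx had 0.210 on array 1 and 0.208 on array 2, an SD of 0.0018 that is far smaller than that of either probe because their deviations cancelled. This gene mean of 0.209 had a 95% interval of -0.0229 to 0.440 and an adjusted p of 0.760 by limma over 9062 genes. It corresponds to 1.16-fold on base 2 and 1.62-fold on base 10.

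The vesicle SNARE of neurons, neuronal synaptobrevin (nSyb, CG17248), gave opposite signs on the arrays. Probe 9950 had -0.251 on array 1 and 0.224 on array 2, with a mean of -0.0135 ± 0.336 (SD, n = 2) and an adjusted p of 0.999 by limma. This was the widest spread between arrays among the 9 member probes. Another nSyb probe, 4317, had a value on array 2 alone, -0.055, on the other side from probe 9950 on that array. With array 2 turned, the nSyb values therefore give no direction. Without turning, both values of probe 9950 were negative, -0.251 on array 1 and -0.224 on array 2.

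Rop (CG15811), the fly Sec1/Munc18 protein that binds syntaxin and is needed for release, lay closest to 0. Its probe had 0.010 on array 1 and 0.009 on array 2, with a mean of 0.0095 and a 95% interval of -0.231 to 0.250. The arrays were nearly equal on this probe, and the width of the interval comes from the spread that limma takes over from all probes.

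Bruchpilot, encoded by brp (CG42344), forms the T-bars of the active zone, where calcium channels and vesicles are brought together. Of its 4 probes, 2 were measured on both arrays. Probe 13538 had 0.052 on array 1 and -0.181 on array 2, and probe 14850 had 0.087 on array 1 and -0.002 on array 2. Probe 7014 was measured on array 2 alone, at -0.293, and probe 10942 on neither array. On array 2 all 3 measured probes were negative, and on array 1 both measured probes were positive. The mean over the 2 probes was -0.011 ± 0.114 (SD, n = 2), with an adjusted p of 0.999 by limma. In the platform annotation, 3 of the brp probes carry the symbol with an identifier that the current gene table no longer holds, and were matched through the symbol.

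**Figure D2:**
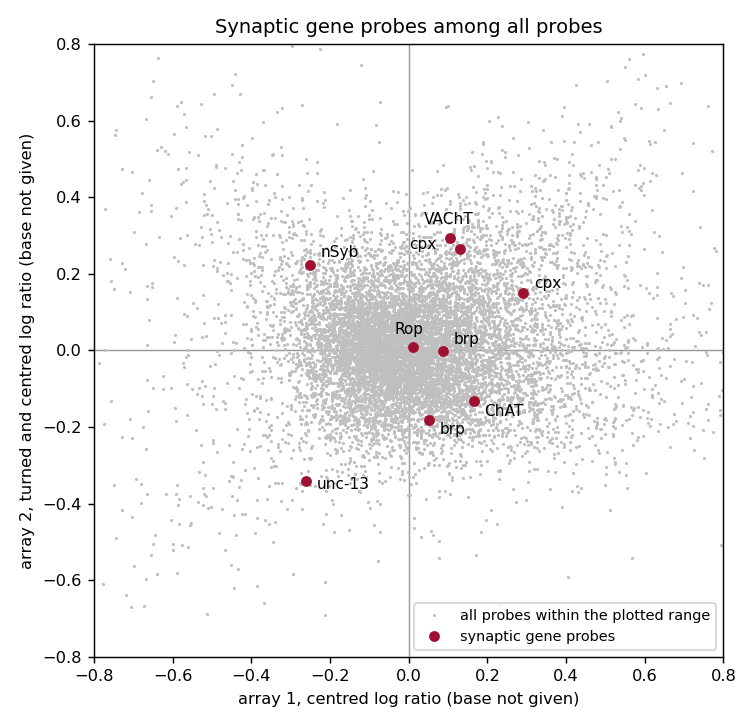
Turned and centred log ratios of array 1 (horizontal axis) against array 2 (vertical axis), with the 9 member probes measured on both arrays in red and other probes in grey; 164 probes outside the plotted range are not drawn. The probes of cpx and VAChT lie at the upper right and unc-13 at the lower left, while nSyb, ChAT and both brp probes lie where the arrays have opposite signs.

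The transmitter genes included a pair that share a locus. ChAT (CG12345), choline acetyltransferase, makes acetylcholine, and VAChT (CG32848) loads it into vesicles. In the Release 6 plus ISO1 MT assembly the VAChT gene lies within the span of ChAT on chromosome arm 3R, an arrangement known as the cholinergic locus. VAChT had 0.104 on array 1 and 0.293 on array 2, both positive, with a mean of 0.199 ± 0.134 (SD, n = 2), a 95% interval of -0.0627 to 0.460 and an adjusted p of 0.870 by limma. ChAT had 0.165 on array 1 and -0.133 on array 2, with a mean of 0.016 ± 0.211 (SD, n = 2) and an adjusted p of 0.999 by limma. The genes were close on array 1, where ChAT minus VAChT was 0.061, and apart on array 2, where it was -0.426. Their intervals overlap over most of their length, and the difference between them was not tested.

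VGlut (CG9887), the vesicular glutamate transporter of motor neurons and other glutamatergic cells, was measured on array 2 alone. The value was 0.083. With no dye-swapped counterpart, a probe-specific dye effect and a difference between the crosses cannot be told apart for VGlut, nor for the nSyb and brp probes that have the same gap. All 3 member probes with 1 value lacked the one on array 1. The same gap was found in 2582 probes of the whole table, against 109 with a value on array 1 alone.

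The reading of the swap decides which members stand out. If the deposited ratios already run by genotype on both arrays, array 2 should not be turned. The labels name the dASF/SF2 cross as the source of channel 2 on both arrays. A ratio of channel 2 over the other channel would therefore run by genotype, and the labels do not say which ratio was deposited. Under that reading nSyb probe 9950 lay farther from 0, at a mean of -0.238 ± 0.0191 (SD, n = 2, 95% interval -0.480 to 0.0054), and ChAT at 0.149 ± 0.0226. The nSyb probe 4317, measured on array 2 alone, still lay on the other side from probe 9950 on that array (deposited values 0.065 and -0.214). Probe 13538 of brp then had 0.117 ± 0.0912. In contrast, unc-13 had 0.040 ± 0.427, VAChT -0.0945 ± 0.281, and the cpx probes 0.0705 ± 0.310 and -0.068 ± 0.280 (SD, n = 2 each). Limma called 0 of the 9 member probes under this reading, against 0% of all probes, and the lowest adjusted p of a member by limma was 0.992, for nSyb and ChAT. An unadjusted p under 0.05 in limma was then found for 0 of the 9 member probes, against 4.88% of all probes. The members thus fall into those whose deposited values had opposite signs on the arrays (cpx, VAChT and unc-13), and those with like signs (nSyb, ChAT, brp and, near 0, Rop).

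**Figure D3:**
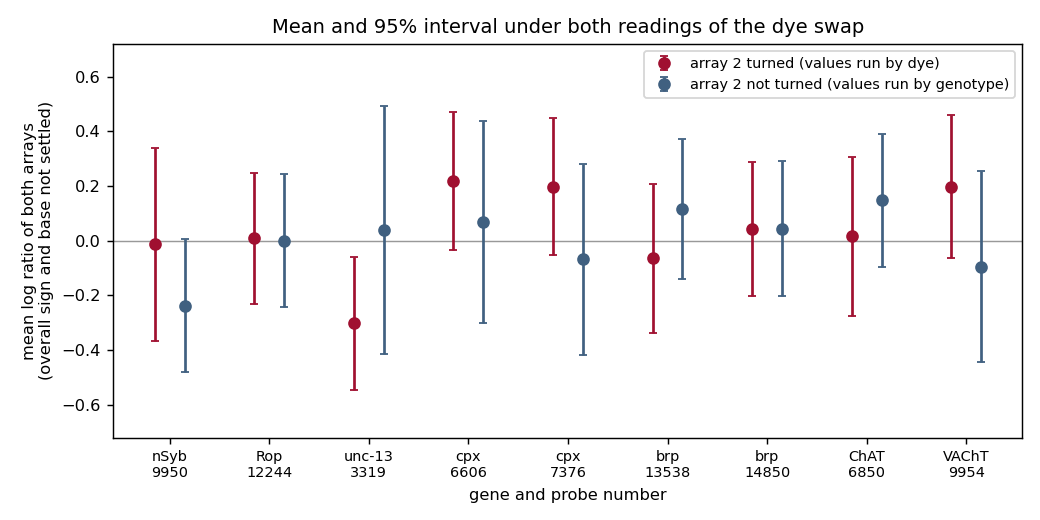
Mean log ratio of both arrays (points, vertical axis, overall sign and base not settled) with the 95% interval from limma (bars) for the 9 member probes (horizontal axis), with array 2 turned in red and not turned in blue. The interval excludes 0 for unc-13 alone with array 2 turned, and for none with array 2 not turned, where nSyb comes closest at -0.480 to 0.0054.

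At the level of genes, the 7 members measured on both arrays had a median of 0.0095, against 0.0025 for all 9062 genes. The array medians of the members were 0.0695 on array 1 and 0.009 on array 2. Their range ran from -0.302 for unc-13 to 0.209 for cpx, and their median distance from 0 was 0.016, against 0.073 for all genes. That distance holds for array 2 turned and was not worked out without turning. With array 2 not turned, nSyb (-0.238), ChAT (0.149) and both brp probes (0.117 and 0.0445) lay farther from 0. Nearer to 0 were then unc-13 (0.040), VAChT (-0.0945), the cpx probes (0.0705 and -0.068) and Rop (0.0005). Limma called 0 of the 7 over all genes, against 0% of the 9062. With array 2 turned, 3 members (cpx, VAChT and, through centring alone, Rop) were on the positive side on both arrays, where 25.5% of all genes were. On the negative side on both was 1, where 23.7% of all genes were.

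Further genes of the pathway were taken from 6 lists with 120 genes in all, of which 67 were measured on both arrays. Limma called 0 of the 67 over all genes, and the lowest adjusted p was 0.304. At an unadjusted p under 0.05, limma found 3 on the positive side (Tomosyn, Gs2 and Ddc) and 3 on the negative side (Frq1, GluRIIA and nAChRbeta2), where it found 4.77% and 2.23% of all genes on those sides. The median of the 67 was 0.0315, with 0.058 on array 1 and 0.013 on array 2. Values in this and the following paragraphs have array 2 turned, and those without turning are given where they differ much. Counts of genes on 1 side on both arrays compare with 25.5% of all genes for positive and 23.7% for negative.

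Partners of the fusion machinery came from the list of SNAREs and their regulators, with 7 of 19 genes measured. On both arrays, 5 of the 7 were positive and 1 was negative. The list median was 0.0845 (-0.0245 with array 2 not turned and 0.0568 with centring within blocks). The array medians were 0.058 and 0.091. Tomosyn, which competes with synaptobrevin for syntaxin and SNAP-25 and thereby limits release, was highest. It had 0.455 on array 1 and 0.380 on array 2, with a mean of 0.418 ± 0.053 (SD, n = 2). That is 1.34-fold on base 2 or 2.62-fold on base 10, with an adjusted p of 0.339 by limma. With array 2 not turned, the mean of Tomosyn was 0.0375. Snap24, a SNAP-25 relative, followed with a mean of 0.171 ± 0.0346 (0.146 on array 1 and 0.195 on array 2). The adaptors of SNARE disassembly were lowest, alphaSnap at -0.0585 and gammaSnap1 at -0.0485, both near 0.

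Of the synaptotagmins and other calcium sensors, 5 of 11 were measured, with a median of 0.029 (-0.0115 with array 2 not turned) and array medians of 0.080 and 0.049. On both arrays, 2 of the 5 were positive and 1 was negative. Frq1, a frequenin that binds calcium in nerve terminals, had -0.846 on array 1 but -0.123 on array 2, so its mean of -0.485 ± 0.511 (SD, n = 2; adjusted p = 0.621 by limma) rested mostly on array 1. Cadps, which primes dense-core vesicles, gave opposite signs, 0.086 on array 1 and -0.231 on array 2, for a mean of -0.0725. The extended synaptotagmin Esyt2 (0.132) and the synaptotagmin Sytbeta (0.0645) were highest, each positive on both arrays.

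The active zone and vesicle list had 11 of 17 genes measured, a median of 0.0905, and 6 genes positive and 1 negative on both arrays. The median was 0.217 on array 1 and 0.013 on array 2. Its highest gene, cac, encodes the calcium channel that triggers release, and had 0.727 on array 1 and 0.011 on array 2. CASK, a scaffold of synaptic membranes, showed the same imbalance, with 0.605 on array 1 and 0.013 on array 2. Their means of 0.369 ± 0.506 and 0.309 ± 0.419 (SD, n = 2 each) were smaller than their spread. The scaffold gene Liprin-gamma (-0.108) and the vesicular proton pump subunit Vha100-1 (-0.095) were lowest. Of 17 endocytosis genes, which recover vesicle membrane after release, 15 were measured, with a median of 0.0315 and array medians of 0.058 and -0.003. Means ran from -0.109 for the clathrin heavy chain gene Chc to 0.134 for the clathrin adaptor gene lap. On both arrays, 4 of the 15 genes were positive and 3 negative. The other 8 were not on the same side on both arrays, a share near that of all genes (4608 of 9062). Among the 8 was lap, with 0.359 on array 1 and -0.091 on array 2. The amphiphysin gene Amph had -0.039 and the phosphatase gene Synj 0.120.

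Of the 22 genes listed for transmitter synthesis, transport and breakdown, 12 were measured, with a median of 0.0427 and array medians of 0.0808 and -0.040. On both arrays, 4 of the 12 were positive and 3 negative. The listed gene Glt, with a mean of 0.154, was counted among the 12, although its part in transmitter handling was not checked. Also among the 12 were the 2 genes with the highest means of the 6 lists, Gs2 and Ddc. Gs2, a glutamine synthetase found in glia that take up glutamate, had 0.524 on array 1 and 0.501 on array 2, a mean of 0.513 ± 0.0163 (SD, n = 2; adjusted p = 0.304 by limma). Ddc had 0.513 on array 1 and 0.466 on array 2, a mean of 0.489 ± 0.0329 (SD, n = 2; adjusted p = 0.304 by limma). This decarboxylase makes dopamine and serotonin in neurons and also serves tanning of the cuticle in the epidermis. With array 2 not turned, the mean was 0.0115 for Gs2 and 0.0232 for Ddc. At the other end, the choline transporter gene ChT had -0.494 on array 1 and -0.097 on array 2, a mean of -0.296 ± 0.281 (SD, n = 2). The amino acid transporter gene Eaat2 had a mean of -0.176, with -0.013 on array 1 and -0.339 on array 2.

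The transmitter receptors had 17 of 34 genes measured and the lowest median of the 6 lists, -0.033, with -0.112 on array 1 and 0.002 on array 2. On both arrays, 2 of the 17 were positive and 5 negative. GluRIIA, a glutamate receptor subunit of muscle at the neuromuscular junction, had -1.021 on array 1 and -0.160 on array 2. Both values were negative, but the mean of -0.591 ± 0.609 (SD, n = 2; adjusted p = 0.575 by limma) was smaller than their spread. nAChRbeta2, a nicotinic acetylcholine receptor subunit, differed less between the arrays, with -0.260 on array 1 and -0.239 on array 2, a mean of -0.250 ± 0.0148 (SD, n = 2; adjusted p = 0.667 by limma). Its mean was -0.0105 with array 2 not turned. The highest were other nicotinic subunits, nAChRalpha3 at 0.120 and nAChRbeta3 at 0.092.

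**Figure D4:**
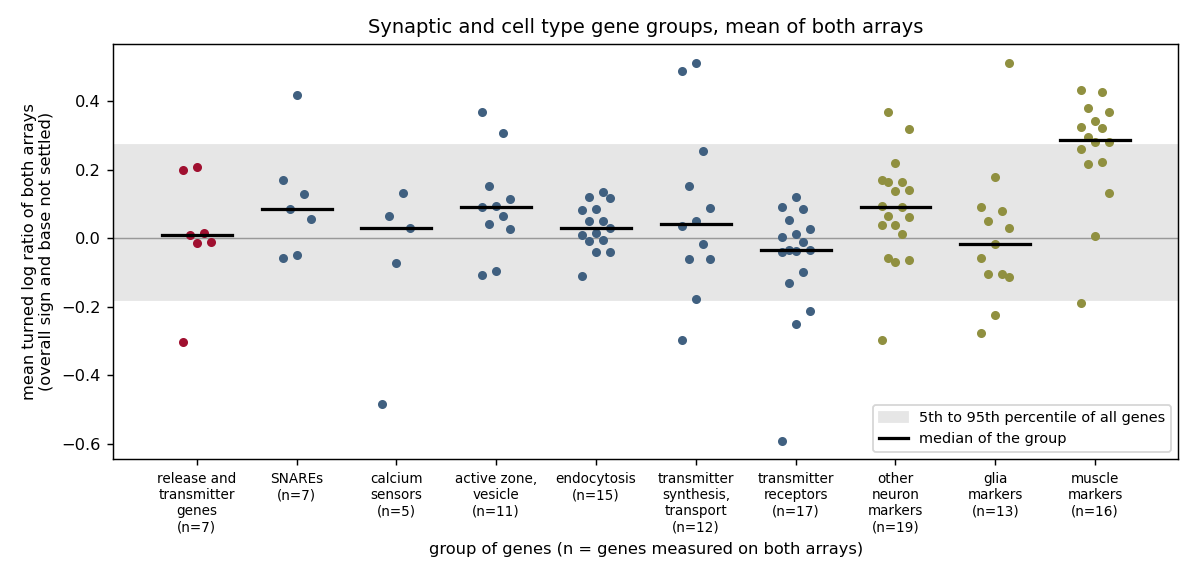
Mean turned log ratio of both arrays (vertical axis, overall sign and base not settled) for each gene measured on both arrays, by group (horizontal axis), with black bars for group medians and a grey band for the 5th to 95th percentile of all genes (-0.18 to 0.272). The member genes (red) have a median of 0.0095, the muscle markers (right) of 0.289 with array 2 turned as drawn and 0.031 with array 2 not turned.

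Markers of the cell types that larval RNA could hold were set beside these values. Other neuron markers had a median of 0.092 over 19 of 24 genes, with 10 positive and 1 negative on both arrays. By array, these medians were 0.101 and 0.026, in the order of array 1 and array 2. They ran from Appl, the fly amyloid precursor relative (-0.297), to cac, which is also on the active zone list. The pan-neuronal RNA-binding protein gene elav had 0.202 on array 1 and 0.080 on array 2. Glia markers had a median of -0.0175 (0.035 with array 2 not turned; 0.014 on array 1 and -0.093 on array 2) over 13 of 14 genes, with 2 positive and 5 negative on both arrays. The glial transcription factor gene repo was lowest, at -0.393 on array 1 and -0.157 on array 2, and Gs2, shared with the transmitter list, was highest. Of 16 measured muscle markers, 14 were positive on both arrays with array 2 turned. Their median was 0.289, from fln (-0.189) to Zasp52 (0.433), and 0.031 with array 2 not turned. Limma called 0 of the genes of these 3 lists over all genes. At an unadjusted p under 0.05 it found 9 of the 16 muscle markers on the positive side, against 4.77% of all genes, and 1 gene on each side among the neuron and among the glia markers. The part of any of these tissues in the values of the synaptic genes was not tested.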

How the data were processed

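The members and lists were chosen with earlier results of these data known. The deposited table holds, per the file headers and labels, 1 score per probe and array, read as a log ratio; the sources used here do not give its background correction, normalization, filter, log base or numerator. Blank cells (3996 on array 1 and 1450 on array 2) and 7 cells coded -10000 were taken as missing. Probe numbers form 24 blocks of 656, and 40 places unnamed in every block (960 features) were left out as control features. Array 2 was turned, and each array was centred on its median. Symbols came from the platform annotation, updated through gene identifiers for 12519 probes and through symbol or synonym for 588; 40 kept their own. Limma 3.58.1 in R 4.3.3 (lmFit, eBayes, two-sided, against 0, 1 residual degree of freedom) was run on 10912 probes and on means over the probes of 9062 genes, with Benjamini-Hochberg adjusted p under 0.05 as the threshold. The fit was tested on simulated data. Named genes were all members, SF2, the 2 highest and 2 lowest of each pathway list and the highest and lowest of each marker list. The genes elav and Glt were named in addition, after their values were seen. Alternatives left array 2 unturned, dropped centring, kept the control features or probes with 1 value, centred within blocks, took medians of probes, left out eBayes or left out an array.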

Additional observations from a re-analysis of the deposited data

How the results depend on the processing

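Member probes called, member genes called and pathway genes called stayed at 0 under every alternative that gives a test. Over all genes, limma called 1 of 9062 with centring dropped and 1 of 9062 with the control features kept. It called 2 of 11066 genes with probes with 1 value kept. The cause of the moves below was not tested. The member median was 0.0095, and 0.009 to 0.0695 with 1 array left out. With array 2 not turned, signs changed for VAChT (-0.0945), brp probe 13538 (0.117), cpx probe 7376 (-0.068), unc-13 (0.040), alphaSnap (0.0295), Snap24 (-0.0245), Cadps (0.159), Esyt2 (-0.0115), Vha100-1 (0.074), Chc (0.041), Synj (-0.125), Eaat2 (0.163), nAChRalpha3 (-0.166), nAChRbeta3 (-0.089), Appl (0.104) and SF2 (0.0485). Array 2 values alone change sign by construction. Without a change of sign, means came close to 0 for Tomosyn (0.0375), Gs2 (0.0115), Ddc (0.0232), nAChRbeta2 (-0.0105) and Zasp52 (0.020). Medians were then 0.031 for muscle markers, -0.0245 for SNARE genes and -0.0115 for calcium sensors. With centring within blocks, ChAT had -0.0015 and the SNARE median was 0.0568. Without array 1 the median of other neuron markers was 0.026. Each log ratio already pairs the crosses on the same array, and no further pairing was possible because both arrays form 1 group of ratios. The arrays, 2 in number, set the limit on what could be detected, and signal over background was not in the table.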
